A study of Arabidopsis thaliana with 12 samples.

Results

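Calmodulin-like genes encode small proteins built of EF-hand loops that bind Ca2+. Here 10 of them were followed: *TCH3*, *TCH2*, *CML23*, *CML37*, *CML38*, *CML39*, *CAM9*, *CML11*, *CML41* and *MSS3*. They were chosen by name, with earlier results of these data known. They were taken by their locus identifiers out of the 37813 genes of the deposited table of read counts. All 10 passed the filter on low counts (at least 5 reads in at least 3 samples, 20100 protein-coding genes in all). RNA came from whole rosettes of 4-week-old *Arabidopsis thaliana* grown under an 8 h photoperiod, in 4 groups of 3 biological replicates, each a pool of at least 4 rosettes. The groups were UV-C treated *jac1*, UV-C treated wild type, non-treated *jac1* and non-treated wild type. The wild type was Col-0 *gl1*, and *jac1*, which lacks a working J-domain protein required for chloroplast movement, was in the same *gl1* background, so all 4 groups lack leaf trichomes. UV-C was given as one dose of 100 mJ cm-2 and rosettes were harvested 30 min later. No mock-handled group is described, so UV-C and the handling for the exposure cannot be told apart in any UV-C response below. A single mutant line stood for the genotype.

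In plants a stimulus such as touch, wounding, cold or a pathogen raises Ca2+ in the cytosol within moments. Calmodulin and the calmodulin-like proteins bind this Ca2+ and then change shape and bind their targets, among them the CAMTA transcription factors, Ca2+ pumps and MLO proteins. The *TCH* genes were found as genes that respond to touch, and in leaves transcripts of several calmodulin-like genes are known to rise soon after mechanical or chemical stress.

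The reads counted per library ranged from 20897905 to 27194762 in the 6 UV-C treated libraries, against 33999174 to 40445085 in the 6 non-treated libraries. The non-treated libraries differed within each genotype. All 12 genes of a touch and wound list were above their group mean in *jac1* replicate 2, by a median of 0.52 on the log2 scale, and in wild-type replicate 2, by a median of 0.96, as were 7 and 8 of the 9 members measured above a few reads. In *jac1* replicate 1 only 1 of the 12 touch genes and 2 of the 9 members were above the group mean, and in wild-type replicate 3 only 1 and 1. Results that rest on single libraries are given with and without them. The counts of *JAC1* itself were not lower in *jac1* (151 ± 14 CPM, read counts scaled to library size, in *jac1* and 93.7 ± 5.55 CPM in wild type, both without treatment, SD, n = 3 each), so they give no check of the genotype. The 4 leaf mesophyll markers summed to at least 43841 CPM in every library, whereas the 3 root and 2 seed markers summed to at most 0.182 and 0.071 CPM. In bulk tissue fewer cells of a type and less RNA per cell cannot be told apart.

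**Figure D1:**
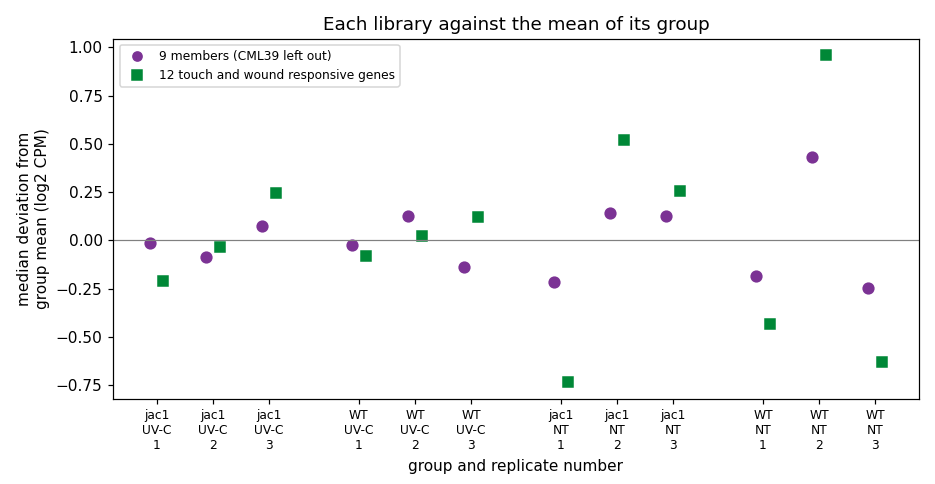
Median deviation of each library from its group mean, on the log2 CPM scale, for 9 members (circles, *CML39* left out) and 12 touch and wound responsive genes (squares). Each position on the horizontal axis is one library. The touch genes spread between -0.74 and 0.96 in the non-treated libraries, and between -0.21 and 0.24 in the UV-C treated ones.

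First, the response to UV-C was set beside the genotype difference, gene by gene. DEGs had an adjusted p under 0.01 together with a log2 FC above 1 in size. Every adjusted p here came from the quasi-likelihood test of edgeR, adjusted by Benjamini-Hochberg across the whole set of tested genes. In wild type 6 of the 10 members were higher with UV-C (7% of all genes tested were called higher). The log2 FC of the 10 ran between 0.04 and 6.87 with a median of 2.35, beside -7.8e-05 over all genes. In *jac1* 4 of the 10 were higher with UV-C (8.96% of all genes), with a median log2 FC of 1.10 beside 0.05. *CML39*, in both counts, passed the filter on low counts only through UV-C treated libraries. In non-treated *jac1* against wild type 2 of the 10, *CML23* and *CAM9*, were higher (1.03% of all genes), with a median of 0.87 beside -0.01. The likelihood ratio test of edgeR, the one the study used, called 5, with *TCH3*, *TCH2* and *MSS3* besides (579 of 20100 genes in either direction). The study had already reported these 5 genes as induced in non-treated *jac1* from the same data. The counts and the median of this comparison are therefore not independent of the choice of members. The count of 2 rests on single libraries. It was 5 without wild-type replicate 2 and 4 without *jac1* replicate 1, whereas it was 1 without any one of 9 other libraries, where *CML23* missed the threshold. Over all 20100 genes the calls in either direction were 391 in the main test, 378 without wild-type replicate 2 and 407 without *jac1* replicate 1. Leaving out 2 libraries together, chosen after the data were seen, gave 6 without wild-type replicate 2 and *jac1* replicate 1, and 1 without wild-type replicate 3 and *jac1* replicate 2. The choice of libraries fixed these directions, since the first pair held the highest wild-type and the lowest *jac1* library by the touch genes and the second the opposite ones.

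After UV-C the log2 FC of the members in *jac1* against wild type ran between -0.63 and 0.97. None of the 10 members was called in UV-C treated *jac1* against wild type, where 4.21% of all genes were called in either direction. At an unadjusted p under 0.05 there were 4 members in edgeR's test (49.9% of all genes), and DESeq2 and edgeR's likelihood ratio test also called 0. The response itself was smaller in *jac1* for 3 members, *TCH2*, *CML23* and *MSS3*, by the genotype by UV-C interaction (1.77% of all genes were called lower). With no limit on the log2 FC *CAM9* was lower as well (5.09% of all genes). The interaction subtracts the non-treated genotype difference, in which the study had already reported these 4 genes as induced in *jac1*. The interaction counts are therefore not independent of the choice of members either. The count of 3 was 0 without wild-type UV-C replicate 2 or *jac1* non-treated replicate 2, 4 without wild-type non-treated replicate 2, and 1 without any one of 7 other libraries.

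The non-treated wild type is the base of both comparisons, so the UV-C response of the wild type minus the non-treated genotype difference equals UV-C treated wild type against non-treated *jac1*. This was tested directly. It called 6 of the 10 members higher (8.04% of all genes), namely *TCH3*, *TCH2*, *CML23*, *CML37*, *CML38* and *CML39*. The remaining 4 were *CAM9*, *CML11*, *CML41* and *MSS3*. The call of *CML39* was lost without wild-type UV-C replicate 3 (adjusted p = 0.0139), *jac1* non-treated replicate 2 (adjusted p = 0.0131) or *jac1* non-treated replicate 3 (adjusted p = 0.010).

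**Figure D2:**
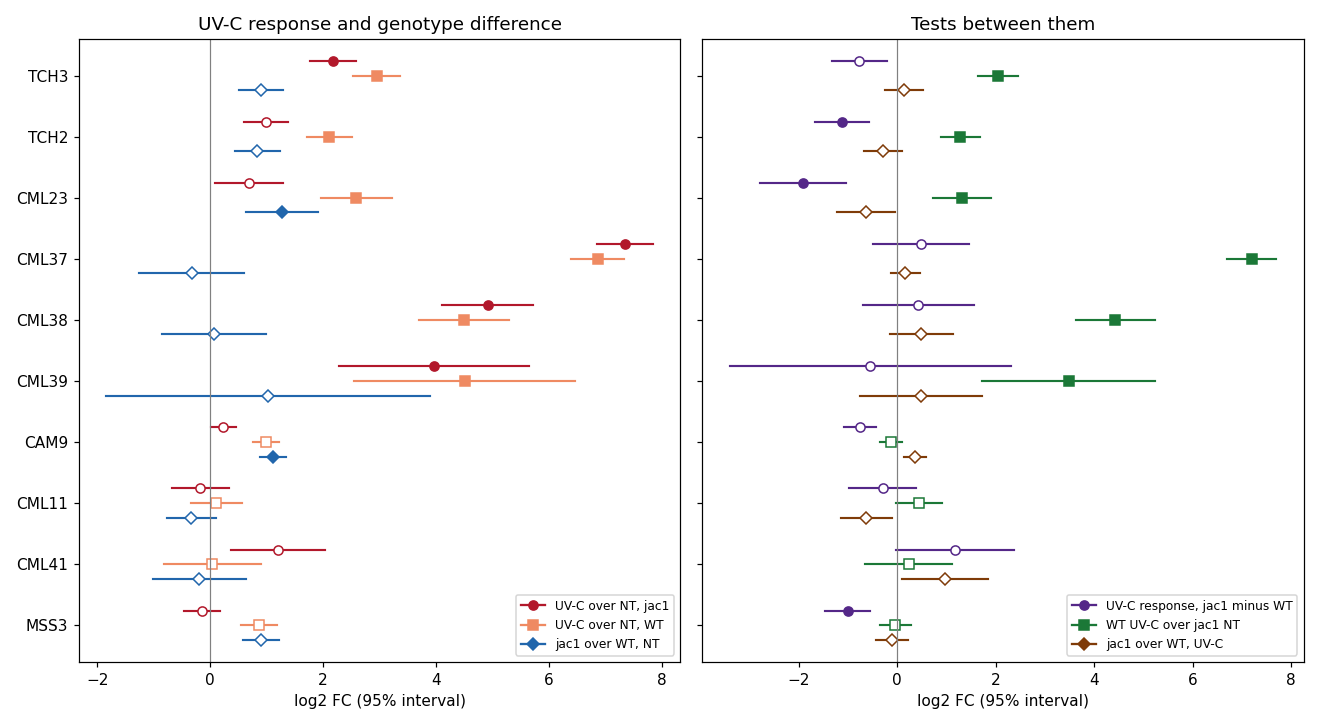
Log2 FC of the 10 genes with 95% intervals, filled where the gene was a DEG. On the left are the UV-C response in *jac1* (circles) and in wild type (squares) and the genotype difference without treatment (diamonds). On the right are the UV-C response of *jac1* minus that of wild type (circles), UV-C treated wild type against non-treated *jac1* (squares), and the genotype difference after UV-C (diamonds). *CML37* reached 7.35 and 6.87 in *jac1* and wild type, and the fitted values of *CML39* rest on few reads.

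The 3 genes *CML37*, *CML38* and *CML39* had the largest UV-C responses of the 10. *CML37* (AT5G42380, chromosome 5, 16942447 to 16943820, minus strand) takes part in the defence against chewing insects. It stood at 55.7, 67 and 61.8 CPM in UV-C treated *jac1* and 54.0, 57.8 and 53.3 CPM in UV-C treated wild type, against 0.194, 0.491 and 0.455 CPM in non-treated *jac1* and 0.217, 0.828 and 0.365 CPM in non-treated wild type. Every UV-C treated library was far above every non-treated one, and the genotypes overlapped in both treatments. The increase was 164-fold in *jac1* (log2 FC 7.35, SE 0.23, adjusted p = 1.57e-11) and 117-fold in wild type (log2 FC 6.87, SE 0.22, adjusted p = 2.01e-11). Without treatment *jac1* against wild type gave a log2 FC of -0.32 (95% interval -1.26 to 0.61), whose sign turned without wild-type replicate 2 (0.38) and without *jac1* replicate 1 (0.02).

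*CML38* (AT1G76650, chromosome 1, 28766750 to 28768138, minus strand), known for its induction by low oxygen and by wounding, also rose in both genotypes. Its values were 86.6, 103 and 109 CPM in UV-C treated *jac1* and 71.3, 77.0 and 64.1 CPM in UV-C treated wild type. The non-treated libraries had 1.98, 4.39 and 3.61 CPM in *jac1* and 2.0, 6.18 and 1.2 CPM in wild type. All 3 UV-C treated *jac1* libraries were above all 3 UV-C treated wild-type libraries, but the log2 FC of 0.49 (SE 0.30) had an adjusted p of 0.201. The UV-C response was 30.2-fold in *jac1* (log2 FC 4.92, SE 0.38, adjusted p = 1.11e-07) and 22.5-fold in wild type (log2 FC 4.49, SE 0.37, adjusted p = 3.78e-07). The non-treated difference between the genotypes was 0.07 (95% interval -0.86 to 1.0). It turned negative without wild-type replicate 1 (-0.18), wild-type replicate 3 (-0.30) or *jac1* replicate 2 (-0.19), and was at most 1.02 without the others.

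*CML39* (AT1G76640, chromosome 1, 28765254 to 28765866, minus strand) lies next to *CML38* and is known from seedling establishment. It had few reads, 8, 32 and 10 in UV-C treated *jac1* and 9, 15 and 16 in UV-C treated wild type, against 4, 0 and 2 in non-treated *jac1* and 0, 2 and 1 in non-treated wild type. Each UV-C treated library exceeded each non-treated one. On summed reads scaled to library size the ratio was 16.3 in *jac1* (95% counting interval 7.0 to 46.6) and 26.5 in wild type (8.45 to 134), and the genotype ratio was 2.24 without treatment (0.478 to 13.8) and 1.38 after UV-C (0.891 to 2.14). These intervals cover counting error only. Across replicates the UV-C response passed the threshold in both genotypes (adjusted p = 6.11e-04 in *jac1* and 0.00110 in wild type). Over their coding sequences *CML38* and *CML39* were 83.4% identical across 471 aligned bases, with a longest shared run of 34 bases, and the longest run that *CML37* shared with either was 12 bases. Reads that aligned to several places were not counted, and how many reads of *CML39* came from *CML38* was not tested.

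For the interaction these 3 genes gave log2 differences of 0.48 (95% interval -0.49 to 1.46) for *CML37*, 0.42 (-0.70 to 1.55) for *CML38* and -0.55 (-3.40 to 2.31) for *CML39*. A difference in response within these bounds was not excluded, and the sign of all 3 turned when single libraries were left out.

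**Figure D3:**
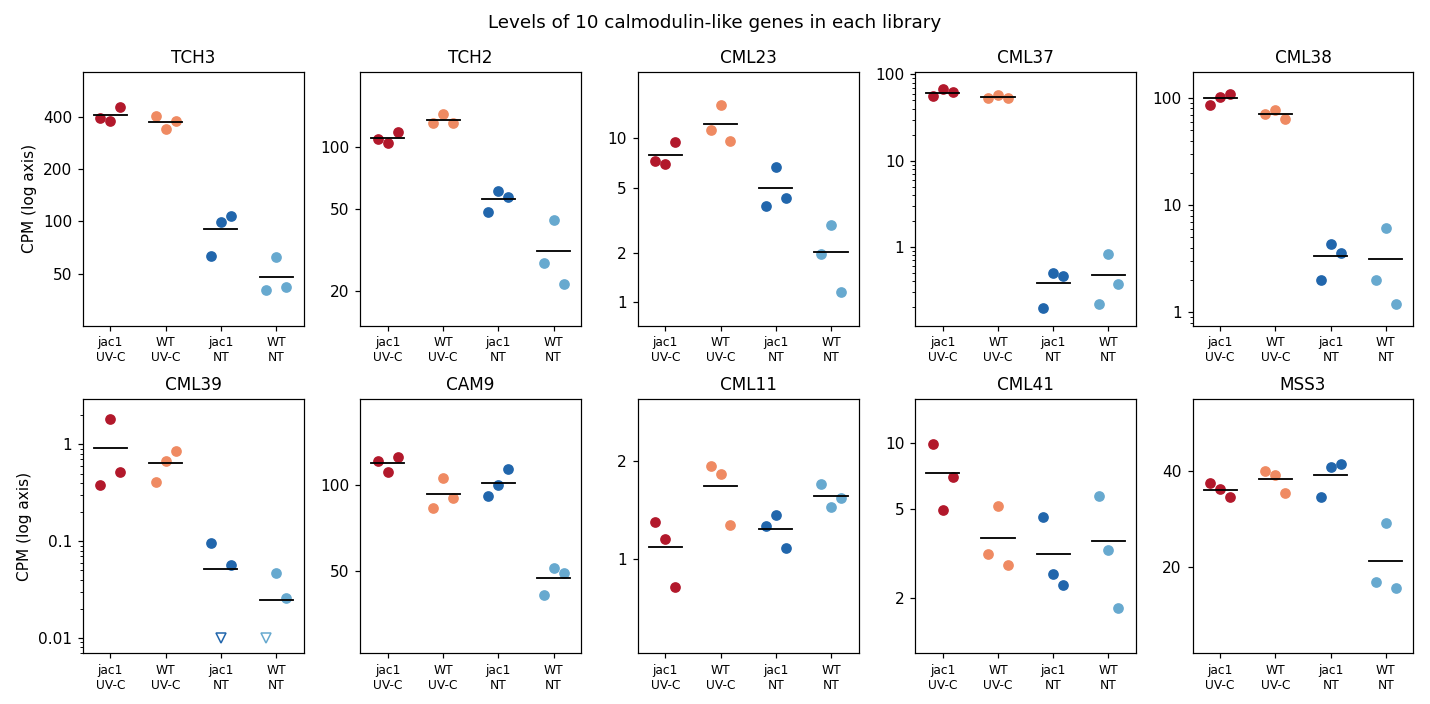
Level of each of the 10 genes in each library, in CPM on a log axis, by group. Points are libraries and bars are group means, and open triangles at the foot of the *CML39* panel mark libraries with 0 reads. *CML37* lay between 53.3 and 67 CPM in all UV-C treated libraries, and between 0.194 and 0.828 CPM in all non-treated ones.

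The touch genes *TCH3* and *TCH2* and the close relative of *TCH2*, *CML23*, formed another pattern, with UV-C values above non-treated values in both genotypes, and non-treated *jac1* above non-treated wild type. *TCH3* (AT2G41100, chromosome 2, 17137037 to 17139700, plus strand) carries more EF-hand loops than the other members, with 6 matches to the EF-hand pattern in its translated coding sequence, against 2 to 4 in the other 9. It had 393, 378 and 452 CPM in UV-C treated *jac1* and 402, 338 and 379 CPM in UV-C treated wild type, against 63.4, 98.7 and 108 CPM in non-treated *jac1* and 40.3, 62.5 and 41.9 CPM in non-treated wild type. The genotypes overlapped after UV-C, and without treatment the lowest *jac1* library was just above the highest wild-type library. *TCH3* rose 4.53-fold with UV-C in *jac1* (log2 FC 2.18, SE 0.19, adjusted p = 3.59e-07) and 7.73-fold in wild type (log2 FC 2.95, SE 0.19, adjusted p = 3.99e-08). The non-treated genotype difference was 0.90 (SE 0.18, adjusted p = 0.00398), under the limit on the log2 FC. It passed that limit at 1.13 without wild-type replicate 2 and at 1.10 without *jac1* replicate 1. Its interaction was -0.77 (SE 0.26, adjusted p = 0.0429), and -1.0 (adjusted p = 0.00786) without wild-type replicate 2. Reads that overlapped its antisense neighbours AT2G09220 and AT2G41105 were not counted, and the strand was not used.

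*TCH2* (AT5G37770, chromosome 5, 14997514 to 14999619, minus strand), also known as CML24, and *CML23* (AT1G66400, chromosome 1, 24770419 to 24771393, minus strand) are the pair known to act together in flowering time and nitric oxide levels. Their coding sequences were 81.2% identical over 473 aligned bases. *TCH2* had 109, 104 and 118 CPM in UV-C treated *jac1* and 131, 144 and 130 CPM in UV-C treated wild type. Without treatment it had 48.6, 61.1 and 57.2 CPM in *jac1* and 27.3, 44.4 and 21.7 CPM in wild type. The groups did not overlap in either treatment: *jac1* was the higher one without treatment and the lower one after UV-C, where the log2 FC of -0.29 missed the threshold (SE 0.18, adjusted p = 0.221). The UV-C response was 4.33-fold in wild type (log2 FC 2.11, SE 0.19, adjusted p = 8.44e-07), and in *jac1* its log2 FC was 0.99 (SE 0.18, adjusted p = 3.47e-04), just under the limit. It lay over that limit without *jac1* non-treated replicate 2 (1.07) or 3 (1.01) or *jac1* UV-C replicate 1 (1.0) or 2 (1.03). The non-treated genotype difference was 0.83 (SE 0.18, adjusted p = 0.00644), and 1.18 without wild-type replicate 2. The response was smaller in *jac1* by 1.12 on the log2 scale (interaction -1.12, SE 0.26, adjusted p = 0.00642). The call was lost without any one of 10 libraries, all but wild-type non-treated replicate 2 and *jac1* non-treated replicate 1, with values between -0.92 and -1.17 and adjusted p between 0.00639 and 0.0185. *TCH2* overlaps AT5G37760 on the opposite strand, and reads in the overlap were not counted.

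*CML23* had 7.29, 6.94 and 9.45 CPM in UV-C treated *jac1* and 11.2, 15.9 and 9.62 CPM in UV-C treated wild type, against 3.87, 6.65 and 4.29 CPM in non-treated *jac1* and 1.96, 2.96 and 1.15 CPM in non-treated wild type. As in *TCH2*, *jac1* was above wild type without treatment and below it after UV-C, with no overlap, and the log2 FC of -0.63 after UV-C missed the threshold (SE 0.27, adjusted p = 0.0785). The log2 FC with UV-C was 0.68 in *jac1* (SE 0.28, adjusted p = 0.0497) and 2.59 in wild type (SE 0.29, adjusted p = 8.31e-06). With a block in the model for the replicate number of the library names, the value in *jac1* was 1.08 (adjusted p = 0.00114), past the threshold. The same block gave a non-treated genotype difference of 0.62 (adjusted p = 0.138), not a call. Without a block the non-treated difference of 1.28 (SE 0.30, adjusted p = 0.00879) was a call that was lost without any one of 9 libraries, all but wild-type non-treated replicate 2, wild-type UV-C replicate 2 and *jac1* non-treated replicate 1, with values between 1.0 and 1.36 and adjusted p between 0.0105 and 0.0539. The interaction was the largest of the 10 members at -1.91 (SE 0.40, adjusted p = 0.00381). It missed the threshold, with adjusted p between 0.0104 and 0.0116, without wild-type UV-C replicate 2 (-1.67), *jac1* non-treated replicate 2 (-1.64) or *jac1* UV-C replicate 1 (-1.85) or 2 (-1.83).

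*CAM9* and *MSS3* made up another pattern, in which non-treated wild type lay below the other 3 groups and non-treated *jac1* overlapped UV-C treated wild type. *CAM9* (AT3G51920, chromosome 3, 19267951 to 19269658, minus strand), also called CML9 and known from responses to salt, abscisic acid and flagellin, had 122, 112 and 126 CPM in UV-C treated *jac1* and 83.0, 106 and 90.5 CPM in UV-C treated wild type, against 91.8, 100.1 and 114 CPM in non-treated *jac1* and 41.1, 51.2 and 48.9 CPM in non-treated wild type. Non-treated wild type was by far the lowest group. All 3 UV-C treated *jac1* libraries were above all 3 UV-C treated wild-type libraries, but the log2 FC of 0.36 (SE 0.11, adjusted p = 0.0137) missed the threshold. *CAM9* was 2.16-fold higher in non-treated *jac1* than in wild type (log2 FC 1.11, SE 0.11, adjusted p = 9.19e-06), a call kept without any one of the 12 libraries (1.03 to 1.18). With UV-C its log2 FC was 0.23 in *jac1* (SE 0.10, adjusted p = 0.0676) and 0.99 in wild type (SE 0.11, adjusted p = 5.20e-06), just under the limit, and it passed without wild-type non-treated replicate 2 (1.05) or 3 (1.01) or wild-type UV-C replicate 1 (1.07) or 3 (1.01). UV-C treated wild type against non-treated *jac1* gave -0.13 (95% interval -0.35 to 0.10). The interaction was -0.75 (SE 0.15, adjusted p = 0.00239), under the limit on its size.

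*MSS3* (AT2G43290, chromosome 2, 17991052 to 17992047, minus strand), also called CML5, had 36.6, 35.2 and 33.1 CPM in UV-C treated *jac1* and 39.9, 39 and 34.1 CPM in UV-C treated wild type. Without treatment it had 33.2, 41.1 and 42.1 CPM in *jac1* and 17.9, 27.4 and 17.1 CPM in wild type. Again non-treated wild type alone was low, and its replicate 2 was the nearest to the other groups. The log2 FC was 0.90 for the non-treated genotypes (SE 0.15, adjusted p = 7.72e-04), 0.86 for UV-C in wild type (SE 0.15, adjusted p = 3.49e-04) and -0.15 for UV-C in *jac1* (SE 0.15, adjusted p = 0.402). Without wild-type replicate 2 the first 2 of these were 1.15 and 1.11, and without *jac1* replicate 1 the first was 1.0, all past the limit. UV-C treated wild type against non-treated *jac1* gave -0.04 (95% interval -0.36 to 0.28). The interaction of -1.01 (SE 0.21, adjusted p = 0.00345) was lost without any one of 7 libraries (wild-type non-treated replicates 1 and 3, wild-type UV-C replicates 1 and 2, *jac1* non-treated replicates 2 and 3, and *jac1* UV-C replicate 3), with values between -0.89 and -0.99 and adjusted p between 0.00655 and 0.0105.

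*CML11* and *CML41* were DEGs in none of the 6 comparisons. *CML11* (AT3G22930, chromosome 3, 8124020 to 8125931, minus strand) had 1.29, 1.15 and 0.822 CPM in UV-C treated *jac1* and 1.93, 1.82 and 1.27 CPM in UV-C treated wild type, against 1.26, 1.36 and 1.08 CPM in non-treated *jac1* and 1.69, 1.44 and 1.54 CPM in non-treated wild type. Its log2 FC with UV-C was -0.18 in *jac1* (95% interval -0.69 to 0.32) and 0.11 in wild type (-0.34 to 0.56), so a change as large as that of *TCH2* in wild type lay outside both intervals. The genotype difference was -0.63 after UV-C (SE 0.24, adjusted p = 0.0493) and -0.34 without treatment (SE 0.20, adjusted p = 0.296).

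*CML41* (AT3G50770, chromosome 3, 18873911 to 18874836, plus strand), known for its place at plasmodesmata, varied widely among replicates. It had 9.83, 4.99 and 6.98 CPM in UV-C treated *jac1* and 3.15, 5.16 and 2.80 CPM in UV-C treated wild type, against 4.62, 2.56 and 2.27 CPM in non-treated *jac1* and 5.73, 3.27 and 1.80 CPM in non-treated wild type. UV-C treated *jac1* was above non-treated *jac1* in every library, with a log2 FC of 1.2 (SE 0.39, adjusted p = 0.0157), which missed the threshold. It passed without wild-type non-treated replicate 1 (adjusted p = 0.00704) or 3 (adjusted p = 0.00584) or *jac1* non-treated replicate 1 (1.59, adjusted p = 0.00572), with the likelihood ratio test (1.29, adjusted p = 2.46e-04) and with only the samples compared (1.16, adjusted p = 0.00728). In wild type its log2 FC was 0.04 (95% interval -0.83 to 0.90), and the interaction was 1.17 (95% interval -0.03 to 2.36, adjusted p = 0.146).

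Other markers moved with these groups. The 4 leaf mesophyll markers summed to 87023 to 98001 CPM in UV-C treated *jac1* and 61734 to 68956 CPM in UV-C treated wild type, against 55889 to 58373 CPM in non-treated *jac1* and 43841 to 49979 CPM in non-treated wild type, with no overlap between any of the groups. The 4 did not all move the same way. With UV-C in wild type the mean of *RBCS1A* fell from 18620 to 15341 CPM and that of *RCA* from 9369 to 7880 CPM. Those of *CAB1* and *LHCA1* rose, from 18216 to 39372 CPM and from 932 to 3439 CPM. The 3 guard cell markers summed to 26.5 to 31.2 CPM in UV-C treated *jac1* and 29.9 to 31.0 CPM in UV-C treated wild type, against 55.4 to 64.2 CPM in non-treated *jac1* and 50.2 to 56.9 CPM in non-treated wild type. The 5 flower markers summed to 0.719 to 0.97 CPM in UV-C treated *jac1* against 2.88 to 3.91 CPM in UV-C treated wild type, and to 0.540 to 0.750 CPM in non-treated *jac1* against 2.58 to 3.79 CPM in non-treated wild type, 4 of the 5 being lower DEGs in *jac1* in both treatments. Over all 20100 genes 339 were called lower in *jac1* after UV-C and 184 without treatment. The part of any of these markers in the values of the members was not tested. The 12 touch and wound responsive genes summed to 1980 to 2193 CPM in UV-C treated *jac1* and 1830 to 1935 CPM in UV-C treated wild type, against 159 to 323 CPM in non-treated *jac1* and 95 to 230.1 CPM in non-treated wild type. Of these 12, 11 were higher with UV-C in *jac1* (8.96% of all genes) and 12 in wild type (7% of all genes). In non-treated *jac1* 2 were higher than in wild type (1.03% of all genes). They were *TCH4* (log2 FC 2.38, SE 0.41, adjusted p = 0.00106), a cell wall enzyme named with the other touch genes, and *CBF2* (1.72, SE 0.39, adjusted p = 0.00793), a regulator of cold response. With UV-C the lowest p of the list were those of *RHL41*, a zinc finger factor (log2 FC 4.65 in *jac1* and 5.39 in wild type, adjusted p = 2.40e-09 and 1.29e-09), and *JAZ1*, a repressor of jasmonate signalling (3.35 and 3.30, adjusted p = 2.97e-09 and 4.20e-09).

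The core of the site of CAMTA factors, CGCGT on either strand, occurred within 250 bases before to 50 bases after the annotated start in 9.67% of the 20020 tested nuclear genes with a full window, and in 3 of the 10 members, *TCH2*, *CML23* and *CAM9*. In the palindrome ACGCGT it matches once on each strand. The W-box core TTGAC occurred in 50.8% of genes and in 3 members, *CML23*, *CML38* and *CAM9*, and the G-box CACGTG in 8.87% of genes and in none of the 10. None of the 3 motifs contains another. A match is a string of letters and not evidence of binding. The last 120 bases before the start, read from the TAIR10.1 assembly in the direction of the gene, with CGCGT on either strand in capitals, are shown for the 3 members that hold it, to be compared with *TCH3*, *CML37* and *MSS3*, which do not.
TCH2, chr5:14999620-14999739, minus strand: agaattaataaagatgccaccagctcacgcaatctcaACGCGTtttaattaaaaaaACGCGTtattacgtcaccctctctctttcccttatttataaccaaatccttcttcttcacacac
CML23, chr1:24771394-24771513, minus strand: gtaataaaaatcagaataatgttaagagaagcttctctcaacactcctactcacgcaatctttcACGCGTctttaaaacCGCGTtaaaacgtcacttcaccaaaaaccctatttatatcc
CAM9, chr3:19269659-19269778, minus strand: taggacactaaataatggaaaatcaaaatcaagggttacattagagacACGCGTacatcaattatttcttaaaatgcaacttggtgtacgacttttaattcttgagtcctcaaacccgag
TCH3, chr2:17136917-17137036, plus strand: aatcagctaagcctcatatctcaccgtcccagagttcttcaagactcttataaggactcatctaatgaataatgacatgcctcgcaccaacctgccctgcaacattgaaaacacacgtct
CML37, chr5:16943821-16943940, minus strand: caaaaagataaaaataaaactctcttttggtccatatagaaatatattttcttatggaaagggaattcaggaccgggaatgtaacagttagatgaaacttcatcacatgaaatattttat
MSS3, chr2:17992048-17992167, minus strand: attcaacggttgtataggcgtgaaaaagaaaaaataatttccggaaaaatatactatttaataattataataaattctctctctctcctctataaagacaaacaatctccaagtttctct

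**Figure D4:**
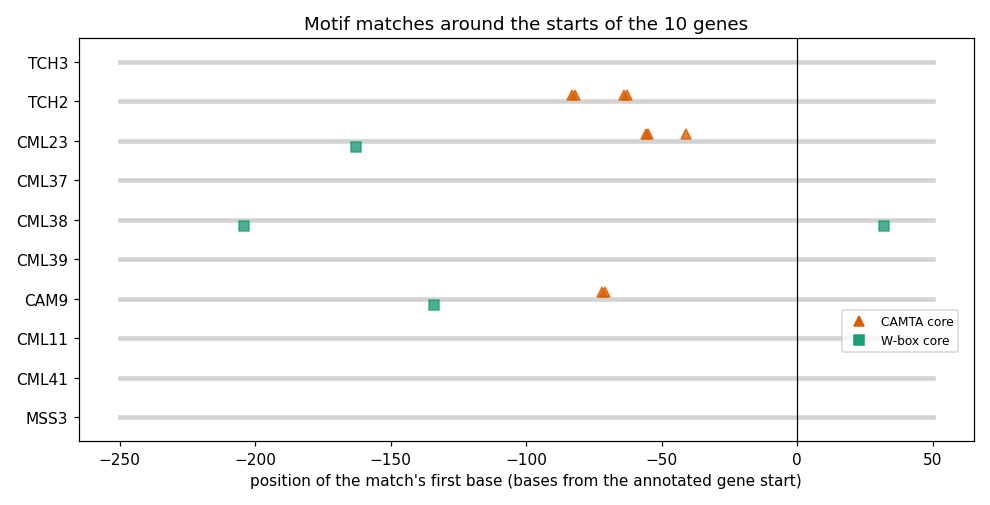
Matches to the CAMTA core (triangles) and the W-box core (squares) from 250 bases before to 50 bases after the annotated start of the 10 genes, by the distance of the first base of each match from the start. Grey bars are the windows searched. CAMTA core matches lay between -83 and -41 in *TCH2*, *CML23* and *CAM9*, and the other 7 genes had none.

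The genes next to 3 of the members are canonical calmodulins, whose proteins are nearly identical to each other and act as the general Ca2+ sensor of the cell. *CAM2*, next to *TCH3*, was the only one of the 7 called in any of the 6 comparisons. It had 32.7, 31.7 and 26.7 CPM in UV-C treated wild type against 10.3, 14 and 12.8 CPM in non-treated wild type (log2 FC 1.30, SE 0.11, adjusted p = 3.08e-07). In *jac1* its log2 FC was 0.70 (SE 0.11, adjusted p = 6.83e-05), and the interaction was -0.61 (SE 0.15, adjusted p = 0.00910).

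*CAM1*, next to *TCH2*, and *CAM4*, next to *CML23*, differed in sign from their neighbours between the non-treated genotypes and with UV-C in wild type, but not with UV-C in *jac1*, and did not exceed the limit on the log2 FC. *CAM1* had 29.4, 29.7 and 26.1 CPM in non-treated *jac1* against 47.7, 48.5 and 44.8 CPM in non-treated wild type, a log2 FC of -0.72 (SE 0.065, adjusted p = 6.06e-06). *CAM4* had 49.0, 45.6 and 44.3 CPM in non-treated *jac1* against 73.2, 74.6 and 67.9 CPM in non-treated wild type, a log2 FC of -0.63 (SE 0.055, adjusted p = 4.69e-06). With UV-C in wild type *CAM1* and *CAM4* had log2 FCs of -0.54 and -0.39, and in *jac1* 0.23 and 0.32. *CML10*, which also lies next to *TCH3*, had a log2 FC of -0.30 with UV-C in *jac1* (adjusted p = 0.293) and -0.11 in wild type (adjusted p = 0.726).

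Of 41 further calmodulin-like or EF-hand genes listed, 24 passed the filter. Of these 24, 9 were higher with UV-C in *jac1* (8.96% of all genes) and 7 in wild type (7% of all genes). The lowest log2 FC was -0.58 in *jac1* and -0.39 in wild type. AT5G39670 had a log2 FC of 5.37 in *jac1* (SE 0.12, adjusted p = 6.01e-13) and 5.64 in wild type (SE 0.12, adjusted p = 6.25e-13). AT3G01830 had 7.15 in *jac1* and 7.51 in wild type (adjusted p = 2.10e-09 and 1.44e-09), and AT3G29000 had 6.24 and 6.85 (adjusted p = 2.68e-09 and 8.63e-10). Between the non-treated genotypes the list ran between -0.79 and 0.67. After UV-C 1 gene, AT1G21550, was called (log2 FC 1.93 in *jac1* against wild type, SE 0.27, adjusted p = 7.41e-05), beside 4.21% of all genes.

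Of 15 genes for Ca2+ channels, pumps and exchangers, 1 was higher and 1 lower with UV-C in each genotype. Over all 20100 genes 1801 were higher and 955 lower with UV-C in *jac1*, and 1408 and 455 in wild type. AT3G22910, listed in the annotation as an auto-inhibited Ca2+ ATPase, had a log2 FC of 4.33 in *jac1* (SE 0.31, adjusted p = 6.86e-08) and 5.50 in wild type (SE 0.35, adjusted p = 2.85e-08). *ACA8*, a Ca2+ pump of the plasma membrane that calmodulin activates, had -1.43 in *jac1* (SE 0.091, adjusted p = 1.75e-08) and -1.05 in wild type (SE 0.085, adjusted p = 3.13e-07), and was lower in UV-C treated *jac1* than in wild type (-1.02, SE 0.093, adjusted p = 1.97e-06).

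Of 15 genes listed by family as calmodulin-binding targets, 2 were higher with UV-C in *jac1* (8.96% of all genes). In wild type 3 were higher (7% of all genes) and 1 lower (455 of 20100 genes). *SARD1*, a regulator of salicylic acid synthesis, had a log2 FC of 3.83 in *jac1* (SE 0.29, adjusted p = 1.08e-07) and 4.77 in wild type (SE 0.31, adjusted p = 3.77e-08), and its partner *CBP60G* had 1.55 and 1.94 (adjusted p = 1.63e-04 and 4.50e-05). Between the non-treated genotypes *MLO12* (1.06, SE 0.20, adjusted p = 0.00236) and *BT2* (1.36, SE 0.31, adjusted p = 0.00703) were higher in *jac1*, beside 1.03% of all genes. *BT2* was the lower one with UV-C in wild type (log2 FC -2.20, SE 0.38, adjusted p = 2.99e-04). It also had the largest difference of this list after UV-C, 4.30 in *jac1* against wild type (SE 0.38, adjusted p = 1.52e-06). The interaction called 2 genes of this list higher, *BT2* (2.94, SE 0.48, adjusted p = 6.47e-04) and the CAMTA gene AT4G16150 (1.09, SE 0.094, adjusted p = 3.57e-06). Over all 20100 genes it called 425 higher.

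Per length the 10 members covered a wide range of levels. In UV-C treated wild type *TCH3* was the highest with 146 ± 12.7 CPM per kb of exon, followed by *CAM9* with 90.7 ± 11.5, *CML38* with 71.3 ± 6.53, *TCH2* with 67.2 ± 3.99, *CML37* with 40.04 ± 1.77 and *MSS3* with 37.9 ± 3.13 CPM per kb (SD, n = 3 each). *CML38* and *TCH2*, and *CML37* and *MSS3*, overlapped in this order. The lowest were *CML23* with 12.5 ± 3.34, *CML41* with 4.0 ± 1.37, *CML39* with 1.04 ± 0.36 and *CML11* with 0.917 ± 0.195 CPM per kb. In non-treated wild type *CAM9* led with 45.8 ± 5.20 CPM per kb, above *MSS3* with 20.9 ± 5.74, *TCH3* with 18.9 ± 4.87 and *TCH2* with 15.5 ± 5.89, the last 3 overlapping, and *CML37* was at 0.342 ± 0.232 CPM per kb.

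Across the 12 libraries the log2 levels of 5 members had an SD over 1, and for each of these the tested gene of the most similar course was sought, by the root mean square difference of the log2 CPM centred on its own mean. It was AT4G34150 for *TCH3* (0.188), *PUP18* for *CML23* (0.259), *XTH18* for *CML37* (0.321), AT5G45630 for *CML38* (0.272) and *SESA1* for the sparsely counted *CML39* (0.427). Among the members themselves, with no limit on the SD, the closest pairs were *CAM9* with *MSS3* (0.272) and *TCH2* with *CML23* (0.274). Genes that vary little come out close by this measure, and *CAM9* and *MSS3* had SDs of 0.55 and 0.44. Those of *TCH2* and *CML23* were 0.93 and 1.09. These values describe the 12 libraries only and carry no test.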

How the data were processed

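Messenger RNA of *Arabidopsis* rosettes was sequenced in 12 libraries, 3 per group. The authors aligned the reads with STAR 2.5.2b and deposited raw counts of reads per gene made with featureCounts (Subread 1.6.2) on exons of the Araport11 annotation. Reads with several alignments or over several genes were left uncounted, one read file per library was used and strand was ignored, which makes genes with close paralogs or overlapping neighbours uncertain. The reference annotation (TAIR10.1) held 37517 of the 37813 identifiers by locus tag, and 37469 had the same start and end.

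The analysis used edgeR 4.0.16 and DESeq2 1.42.0 in R 4.3.3. A protein-coding gene was kept if 3 or more samples had 5 or more reads. A model with the 4 group means was fitted to all 12 samples after TMM scaling. The 6 contrasts were tested two-sided by the quasi-likelihood test of edgeR, adjusted by Benjamini-Hochberg across 20100 genes. The likelihood ratio test used in the study is an alternative. SE is the size of the log2 FC divided by the square root of F. Values are CPM with TMM factors, in the order of replicates 1 to 3.

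The members, the lists of other genes and the tests were chosen with earlier results of these data known. Every member is named, as are the calmodulin genes beside a member, *CML10* and, per list and contrast, up to 2 called genes of lowest p in each direction whose groups do not overlap. Replicates are pools of separate rosettes. Alternatives were the likelihood ratio test, DESeq2, glmTreat, other scalings and filters, only the samples compared, replicate blocks, other thresholds, each library left out, and, after the data were seen, 2 libraries left out together in 2 ways.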

Additional observations from a re-analysis of the deposited data

Results flagged for a closer look

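The UV-C response differed between the genotypes for 4 of the 10 genes, by the interaction term in the quasi-likelihood test of edgeR at a Benjamini-Hochberg adjusted p under 0.01 (all 4 lower, beside 5.09% of all genes). The response in *jac1* minus that in wild type was -1.12 for *TCH2*, -1.91 for *CML23*, -0.75 for *CAM9* and -1.01 for *MSS3* on the log2 scale. The study had already reported all 4 as induced in non-treated *jac1* from the same data, and the interaction subtracts that difference. The count of 4 is therefore not independent of the choice of members. The value for *CAM9* lay between -0.85 and -0.65 when single libraries were left out. By this threshold, which sets no limit on the log2 FC, *CML23* was lost without any one of 4 libraries, *TCH2* without any one of 9 and *MSS3* without any one of 2, with adjusted p up to 0.0116, 0.0185 and 0.0105.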

How the results depend on the processing

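Of 1560 values of single genes under the alternatives, 1433 kept their direction and their side of the threshold, 52 lost and 40 gained a call, and 35 changed sign. Each change of sign concerned a value that was not a call, and the cause was not tested. The call of *CAM9* between the non-treated genotypes was lost only with glmTreat, and the calls of *CML37*, *CML38* and *TCH3* with UV-C were kept in all 26 alternatives in both genotypes.

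The count of members called between the non-treated genotypes, 2 in the report, was 5 with the likelihood ratio test and with no limit on the log2 FC. Over all 20100 genes these 2 settings called 579 and 1915 in either direction, beside 391 in the main test. The count was 0 with glmTreat, and 1 with library sizes only and with only the samples compared. It was 6 without wild-type replicate 2 and *jac1* replicate 1, and 1 without wild-type replicate 3 and *jac1* replicate 2 (2 pairs chosen after seeing the data, which fixed the direction of each). Leaving out single libraries gave 1 to 5. The interaction count, 3 in the report, was 0 with glmTreat and without the second of these pairs, and 0 to 4 when single libraries were left out. For UV-C treated wild type against non-treated *jac1* glmTreat gave 3 in place of 6.

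Whether the replicate numbers pair the samples was not settled. Of the same-numbered pairs, 3 of 18 by sample title and 0 of 10 by library name correlated over 0.1. By title the non-treated wild-type and *jac1* libraries of replicates 1, 2 and 3 correlated at 0.25, 0.078 and 0.15, and all 18 pairs ranged from -0.12 to 0.25. Pairs with different numbers by title reached 0.145 (UV-C treated wild type 3 with UV-C treated *jac1* 2). By library name they reached 0.25 (non-treated wild type 1 with non-treated *jac1* 2). With a replicate block by library-name number, the count was 1 between the non-treated genotypes and 1 for the interaction, and with a block by title number 2 and 3. For UV-C in *jac1*, 4 in the report, both blocks gave 6, with *TCH2* (1.16) and *CML23* (1.08, adjusted p = 0.00114) by library name, and *TCH2* (1.01) and *CML41* (1.24, adjusted p = 0.00306) by title. Over all 20100 genes UV-C in *jac1* had 2437 calls by library name and 2746 by title, beside 2756 in the main test. With the library-name block the non-treated difference of *CML23* was 0.62 (adjusted p = 0.138). The library-name block also gave *CML38* -0.49 between the non-treated genotypes, *CML39* -0.14 between the UV-C treated genotypes, and *MSS3* 0.17 in UV-C treated wild type against non-treated *jac1*.

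Scaling by library size only shifted the median log2 FC of all genes by -0.31 with UV-C in *jac1*, -0.15 with UV-C in wild type, -0.26 between the UV-C treated genotypes, -0.10 between the non-treated genotypes and -0.16 for the interaction. All UV-C calls stayed. The share of higher calls among all genes fell to 62.1% for UV-C in wild type (75.6% with TMM), 37.9% in *jac1* (65.3%), 23.2% between the UV-C treated genotypes (59.9%), 40.5% between the non-treated ones (52.9%) and 36.3% for the interaction (54.5%). With this scaling *CML11* (-0.038) and *CML41* (-0.12) turned with UV-C in wild type, *CAM9* (-0.076) with UV-C in *jac1*, *CML38* (-0.030) between the non-treated genotypes, and *TCH3* (-0.13) and *CML37* (-0.10) between the UV-C treated ones. The likelihood ratio test turned *CML37* between the non-treated genotypes (0.13), *CML39* between the UV-C treated ones (-0.0040) and the interaction of *CML38* (-0.33). Without the first pair of libraries named above *CML37* was 0.73 between the non-treated genotypes and *CML41* -0.030 with UV-C in wild type, and the interactions of *CML37* and *CML38* were -0.59 and -0.83. Without the second pair *CML41* was -0.27 with UV-C in wild type and *CML38* -0.55 between the non-treated genotypes.

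When single libraries were left out, *CML41* ranged from -0.29 to 0.55 with UV-C in wild type, from -0.59 to 0.32 between the non-treated genotypes and from -0.092 to 0.62 in UV-C treated wild type against non-treated *jac1*. Between the non-treated genotypes *CML37* ranged from -0.69 to 0.38 and *CML38* from -0.30 to 1.02, and *CML39* from -0.50 to 0.87 between the UV-C treated ones. The interactions ranged from -0.22 to 0.84 for *CML37*, -0.53 to 0.79 for *CML38* and -1.53 to 0.28 for *CML39*, and *MSS3* from -0.14 to 0.025 in UV-C treated wild type against non-treated *jac1*. Depth limited *CML39*, with 0 to 32 reads per library.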
